A study of Mus musculus with 2 samples.

Results

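The 3 genes of the peroxisome proliferator-activated receptors, Ppara, Ppard and Pparg, were examined in 1 map of the chromatin that the thyroid hormone receptor TRα1 occupied in brown fat. The peaks of that map are referred to as TR binding sites (TRBS). A TRBS was taken for a gene when its summit, the base with the most overlapping ChIP fragments, lay within 100 kb of the transcription start site (TSS) of any annotated transcript of that gene. This gave 21 of the 5107 TRBS of the map, of which 10 were at Ppara, 3 at Ppard and 8 at Pparg. The genes lie on different chromosomes, so no TRBS could be shared between them. The sites were chosen by the position of called peaks, and Ppara was selected because it is among the genes with most TRBS. Counts per gene are therefore a description, with no test.

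The tissue was brown adipose tissue of male C57BL/6J mice aged 8 to 12 weeks. The mice expressed TRα1 with a GS protein tag in brown adipocytes, and the promoter that restricted it to these cells is not given in the sources used here. All mice received propylthiouracil, which blocks thyroid hormone synthesis, in their food for 2 weeks and thyroid hormone over the last 24 h. Chromatin precipitated with an antibody to the receptor gave 1 ChIP library and chromatin before precipitation gave 1 input library, so every site rests on a single ChIP and no replicate error can be given. Whether tissue of several mice was pooled is not given in the sources used here, and mice left without hormone were not analysed here.

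TRα1 is a nuclear receptor that binds DNA as a heterodimer with RXR. The element it favours is the DR4, a direct repeat of the motif AGGTCA with 4 bases between the copies. The PPARs are nuclear receptors for fatty acids and their derivatives, and they share the RXR partner but favour the DR1 element, in which 1 base separates the copies. PPARα drives genes of fatty acid oxidation and is abundant in brown fat, liver and heart. PPARγ is required for the formation of adipocytes, and its adipocyte isoform starts from an internal promoter of the gene. PPARδ is expressed in many tissues and also acts on lipid oxidation. Messenger RNA was not measured in these samples, so the TRBS say nothing on the level of these genes. The 3 genes listed as brown adipocyte markers all had TRBS within 30 kb, with 5 at Ucp1, 4 at Ppargc1a and 3 at Cidea, beside at least 1 at 19.6% of all protein-coding genes. They were listed with earlier results of these data known, and occupancy near a marker gene does not show that the gene is expressed.

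The 6 sites that held a DR4 with at most 2 mismatches are shown first, because they include the strongest TRBS of Ppara and of Pparg. Each element is given 5′ to 3′ on its own strand, with the repeat copies in capitals and the 4 bases between them in lower case. Coordinates are those of GRCm38, and TRBS are numbered along the chromosome within each gene.
Ppara site 2, chr15:85704647-85704662, minus strand: AGGTCCccagAGGTCT
Ppara site 3, chr15:85706108-85706123, plus strand: AGGTCAgctcAGGCCA
Ppara site 9, chr15:85803622-85803637, plus strand: AGGACCtttcAGGTCA
Ppard site 3, chr17:28271652-28271667, plus strand: AGGTCActccAGTACA
Pparg site 5, chr6:115501096-115501111, plus strand: GGGTGAcctgAGGTCA
Pparg site 6, chr6:115510134-115510149, plus strand: AGGTTAactgGGGTCA
Positions in an element were counted from 1 at its 5′ end, with the base of the repeat first. Ppara site 3 was the only one of the 21 sites with a single mismatch, T14C, in the downstream copy, and its upstream copy was perfect. At Ppara site 9 and Pparg site 5 the downstream copy was perfect and both mismatches lay in the upstream copy, T4A and A6C in the former and A1G and C5G in the latter. At Ppard site 3 the upstream copy was perfect, and the downstream copy had G13T and T14A. The remaining elements had 1 mismatch in each copy, A6C and A16T at Ppara site 2 and C5T and A11G at Pparg site 6.

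The number of TRBS was compared with that of all protein-coding genes, each with all its annotated starts. Ppara had 10 TRBS within 100 kb, a number reached by 34 of 21938 protein-coding genes (0.155%). These 34 genes formed only 10 groups of overlapping windows, since neighbouring genes share their TRBS. The 8 TRBS of Pparg were reached by 112 genes (0.511%), and the 3 TRBS of Ppard by 2200 genes (10%). At least 1 TRBS within 100 kb was found for 40.6% of all protein-coding genes. The windows of the PPAR genes differed in length, as their starts spread over 37231 bp at Ppara, 60546 bp at Ppard and 79024 bp at Pparg. Per Mb of window, Ppara had 42.2 TRBS, Pparg 28.7 and Ppard 11.5.

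The order also depended on the distance. Within 30 kb, the limit of the study, Ppara had 6 TRBS and Ppard and Pparg had 3 each. At least 6 were found for 0.246% of all protein-coding genes, and at least 3 for 2.54%. Within 10 kb, Ppara had 2 TRBS, fewer than the 3 each of Ppard and Pparg. With a single start per gene, Ppara kept its 10 TRBS, whereas Pparg fell to 3, because its other 5 TRBS were reached only from internal starts. The TRBS closest to the 100 kb limit on the inner side was at 60570 bp for Ppara (19 fragments), at 6386 bp for Ppard (31 fragments) and at 79624 bp for Pparg (22 fragments). On the outer side, the nearest summit was at 124147 bp for Ppara (37 fragments), at 169720 bp for Ppard (18 fragments) and at 122247 bp for Pparg (52 fragments).

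**Figure D1:**
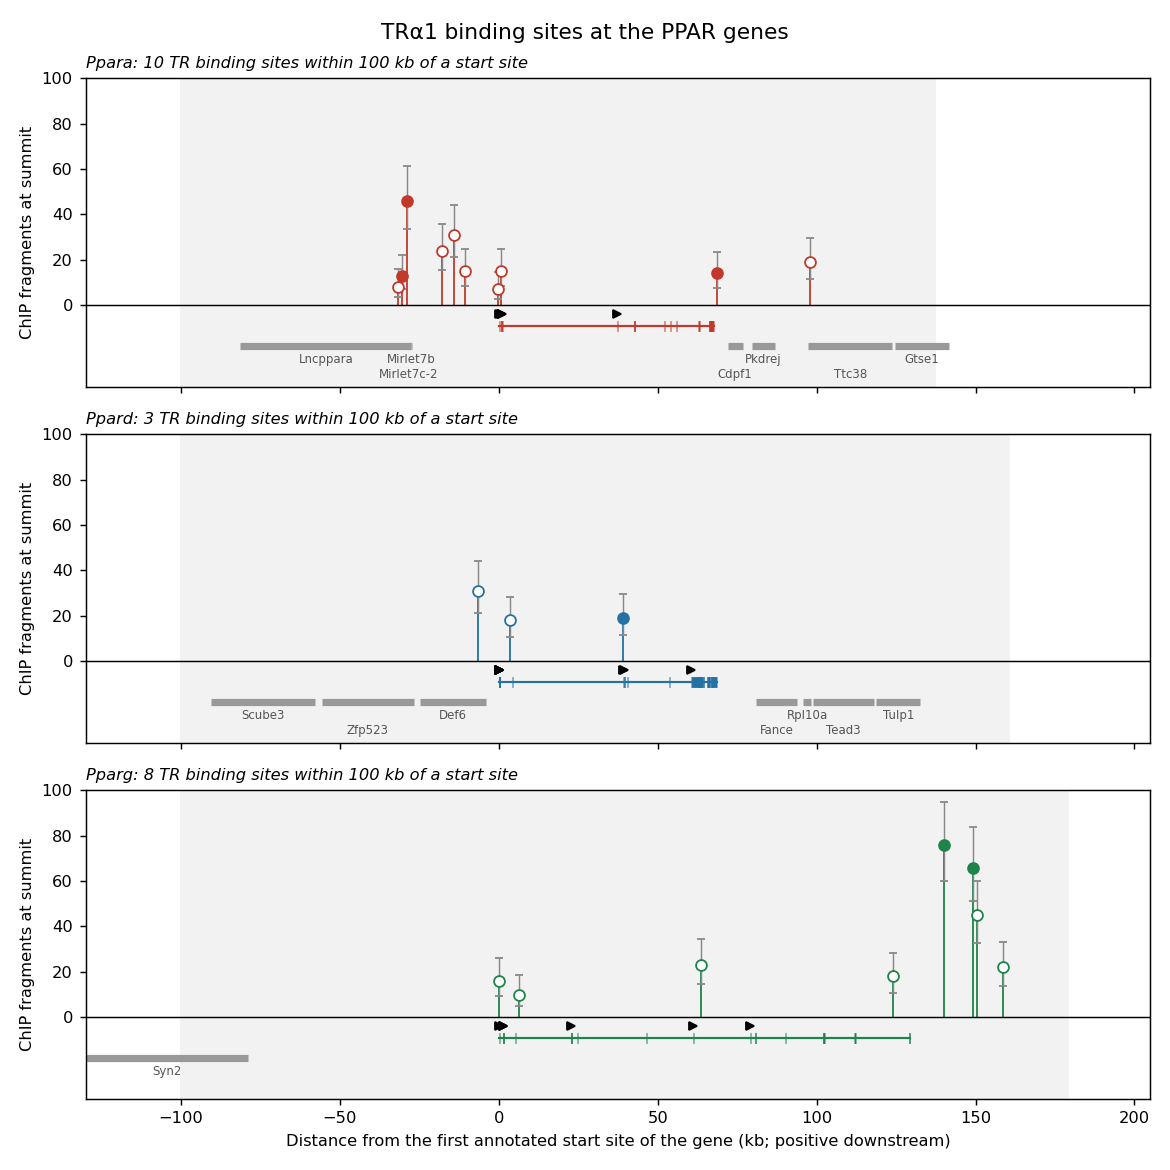
TRBS within 100 kb of a start of Ppara, Ppard or Pparg, plotted by distance from the first start of the gene (kb) against the number of ChIP fragments at the summit, with 95% exact Poisson intervals as error bars. Filled circles hold a DR4 with at most 2 mismatches, shading marks the 100 kb windows (peaks outside them are not drawn), arrowheads mark starts, coloured boxes exons and grey bars neighbouring genes that overlap the window; 7 of 10 TRBS lie upstream of Ppara, and the 4 beyond the end of Pparg include its 3 strongest.

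The place of the TRBS differed between the genes. At Ppara (chromosome 15, 85734983 to 85802819, plus strand), 7 TRBS lay upstream of the gene, 1 within it and 2 beyond its end. At Pparg (chromosome 6, 115360951 to 115490399, plus strand), none lay upstream, 4 lay within the gene and 4 beyond its end. At Ppard (chromosome 17, 28232700 to 28301474, plus strand), 1 lay upstream and 2 within the gene. Over all pairs of a protein-coding gene and a TRBS within 100 kb, 43.9% were upstream, 15.7% within the gene and 40.5% downstream. A total of 8 TRBS of Ppara were packed into 32119 bp that ended at its promoter. From there, no summit was found over 67957 bp, which took in nearly the whole body of Ppara.

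The values of each site were the number of ChIP fragments at the summit and the fold over the local input background, which the deposited statistics fix. Over all TRBS, the median was 17 fragments and the median fold was 9.83. Of the 21 sites, 13 were above the median number of fragments, 6 were above the 75 percentile and 3 below the 25 percentile. The input background lay between 0.430 and 1.52 fragments on the scale of the ChIP library, compared with a median of 0.672 over all TRBS. Repeat sequence made up at most 22.3% of the 300 bp around any of these summits.

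Ppara sites 1 to 3 lay together about 30 kb upstream of Ppara, in introns of the noncoding gene Lncppara (85653616 to 85707524). Site 3 (85705787 to 85706496, summit at 85706103) was the strongest TRBS of Ppara, with 46 fragments (95% exact Poisson interval 33.7 to 61.4, as for all intervals that follow) and a fold of 28.8, which placed it at the 91.0 percentile of all TRBS. Its summit was 28880 bp upstream of the first Ppara start and 500 bp upstream of the hairpin of Mirlet7c-2, and the hairpin of Mirlet7b followed at 1216 bp. Both encode microRNAs of the let-7 family, and they lie in the same orientation as Ppara. The DR4 of site 3 was centred 12.5 bp from the summit. Site 2 (85704504 to 85704816) had 13 fragments (6.92 to 22.2) and a fold of 6.31, and its DR4 was centred 23.5 bp from the summit, with an exact AGGTCA at 0.5 bp. Site 1 (85703305 to 85703782) had only 8 fragments (3.45 to 15.8), a fold of 4.70 and no DR4. Site 3 was thus stronger than its neighbours beyond counting error.

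The 300 bp around the summit of Ppara site 3 (chr15:85705953-85706252, plus strand) are given because this was the strongest TRBS of the gene, with the best DR4 of the 21 sites. The copies of the DR4 are in capitals.
Ppara site 3: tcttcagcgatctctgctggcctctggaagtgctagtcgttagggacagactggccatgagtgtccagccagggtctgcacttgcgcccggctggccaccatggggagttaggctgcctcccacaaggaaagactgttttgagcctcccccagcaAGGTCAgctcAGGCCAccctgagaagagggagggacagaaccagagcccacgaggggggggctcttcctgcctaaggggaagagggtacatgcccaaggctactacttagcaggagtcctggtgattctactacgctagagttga

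Ppara sites 4 to 6 lay in the intergenic sequence between Lncppara and Ppara. Site 4 (85716926 to 85717354) was 17853 bp upstream of the first start, with 24 fragments (15.4 to 35.7) and a fold of 13.6. Site 5 (85720220 to 85721166), 13989 bp upstream, had 31 fragments (21.1 to 44.0) and a fold of 20.4. Site 6 (85724271 to 85725160), 10481 bp upstream, had 15 fragments (8.40 to 24.7) and a fold of 11.1. The 3 sites fell into the middle and upper part of the list, and their intervals overlapped. None held a DR4 with at most 2 mismatches, and the closest match had 3 mismatches at sites 4 and 5 and 4 mismatches at site 6.

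The promoter of Ppara held a pair of TRBS, both below the median number of fragments. Site 7 (85734538 to 85734970, summit 151 bp upstream of the first start) had 7 fragments (2.81 to 14.4) and a fold of 5.32, the fewest fragments of the 21 sites. Site 8 (85735359 to 85735726) had 15 fragments (8.40 to 24.7) and a fold of 6.34, and its summit was 10 bp upstream of the start of the coding transcript Ppara-203. These summits were 722 bp apart, and the background of site 8, 1.52 fragments, was the highest of the gene. Both were rich in G and C, with 69.7% at site 7 and 79.7% at site 8, against a median of 51.7% over all TRBS. The best match to a DR4 had 5 mismatches at each of them, the poorest of the 21 sites.

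The 2 TRBS beyond the end of Ppara were nearer to the starts of other genes than to a start of Ppara. Site 9 (85803371 to 85803694) was 692 bp past the end of Ppara and 7579 bp from the nearest start of Cdpf1, with 14 fragments (7.65 to 23.5) and a fold of 6.76. It held a DR4, but 118.5 bp from its summit. Site 10 (85832408 to 85832937) had 19 fragments (11.4 to 29.7) and a fold of 12.0, and its summit lay in the first intron of Ttc38, 440 bp downstream of the nearest start of that gene. With these 2 set aside, 8 TRBS had Ppara as the protein-coding gene with the nearest start.

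Ppard had fewer TRBS within 100 kb than Ppara and Pparg, and all were close to one of its annotated starts. Ppard site 1 (28226142 to 28226584), 6386 bp upstream of the first start, lay in an intron of the neighbouring gene Def6, with 31 fragments (21.1 to 44.0) and a fold of 12.7. Site 2 (28236096 to 28236671), in the first intron of Ppard and 3491 bp downstream of the nearest start, had 18 fragments (10.7 to 28.4) and a fold of 7.53. Both had a background of 1.52 fragments and no DR4. Site 3 (28271521 to 28271984) had 19 fragments (11.4 to 29.7) and a fold of 14.0. Its background, 0.430 fragments, equalled the lowest value among all TRBS. Its summit was 44 bp upstream of the internal start of the noncoding transcript Ppard-204, in the second intron of the longer transcripts, and its DR4 was centred 4.5 bp from the summit. This was the shortest distance between a DR4 and a summit among the 21 sites. The 3 sites had overlapping intervals, and none was in the lower part of the list by fragments. By fold, site 2 was at the 31.3 percentile.

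Ppard site 3 (chr17:28271514-28271813, plus strand) is given for the contrast with Ppara, since it lay at an internal GENCODE start of the gene with the DR4, in capitals, at the summit.
Ppard site 3: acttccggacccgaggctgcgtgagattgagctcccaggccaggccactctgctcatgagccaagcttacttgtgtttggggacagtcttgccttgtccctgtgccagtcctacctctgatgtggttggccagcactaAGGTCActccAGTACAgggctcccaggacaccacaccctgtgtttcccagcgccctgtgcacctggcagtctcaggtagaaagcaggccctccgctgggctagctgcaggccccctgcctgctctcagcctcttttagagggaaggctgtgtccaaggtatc

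The 4 TRBS within Pparg had 10 to 23 fragments, fewer than the 3 strongest beyond its end. Pparg site 1 (115360907 to 115361235) had its summit 152 bp downstream of the first start, in the 5′ UTR of the transcript Pparg-202, with 16 fragments (9.15 to 26.0) and a fold of 9.41. It was rich in G and C (77.0%), as was the case at the promoter of Ppara. Site 2 (115367363 to 115367684), in the following intron, had 10 fragments (4.80 to 18.4) and a fold of 4.96, at the 18.5 percentile of fragments. Site 3 (115424271 to 115424692) had 23 fragments (14.6 to 34.5) and a fold of 12.5, and its summit was 2415 bp downstream of the start of Pparg-201. This start is the internal promoter known for the adipocyte isoform. Site 4 (115484878 to 115485204), in the last intron, had 18 fragments (10.7 to 28.4) and a fold of 7.82. None of the 4 held a DR4 with at most 2 mismatches, although an exact RGGTCA, in which R is A or G, was present in sites 1, 2 and 4 and lay 0.5 bp from the summit at site 4.

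The strongest TRBS of the PPAR genes lay beyond the end of Pparg. Pparg site 5 (115500893 to 115501695), 10777 bp past the end of Pparg, had 76 fragments (59.9 to 95.1) and a fold of 47.9. Site 6 (115509884 to 115510516), 19777 bp past the end, had 66 fragments (51.0 to 84.0) and a fold of 35.0. Site 7 (115511178 to 115512448), 21149 bp past the end, had 45 fragments (32.8 to 60.2) and a fold of 30.2. Site 8 (115519213 to 115519776), 29200 bp past the end, had 22 fragments (13.8 to 33.3) and a fold of 12.0. Sites 5 and 6 were at the 97.4 and 96.3 percentile of all TRBS, and both were stronger than each TRBS within Pparg beyond counting error. The interval of site 5 overlapped that of Ppara site 3 by a small margin. The DR4 was centred 72.5 bp from the summit at site 5 and 34.5 bp at site 6. No start of another protein-coding gene lay within the 100 kb window of Pparg. The gene on which these 4 TRBS act was not tested, and none of them lay within 30 kb of a start of Pparg.

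The sequences of Pparg sites 5 (chr6:115501026-115501325) and 6 (chr6:115510026-115510325), plus strand, are given because they were the strongest TRBS of the 3 genes, with the copies of the DR4 in capitals.
Pparg site 5: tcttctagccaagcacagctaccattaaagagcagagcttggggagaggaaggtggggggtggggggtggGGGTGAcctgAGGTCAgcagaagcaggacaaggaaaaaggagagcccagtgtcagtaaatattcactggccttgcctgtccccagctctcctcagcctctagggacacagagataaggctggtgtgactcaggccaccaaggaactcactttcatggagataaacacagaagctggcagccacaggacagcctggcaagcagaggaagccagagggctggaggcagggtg
Pparg site 6: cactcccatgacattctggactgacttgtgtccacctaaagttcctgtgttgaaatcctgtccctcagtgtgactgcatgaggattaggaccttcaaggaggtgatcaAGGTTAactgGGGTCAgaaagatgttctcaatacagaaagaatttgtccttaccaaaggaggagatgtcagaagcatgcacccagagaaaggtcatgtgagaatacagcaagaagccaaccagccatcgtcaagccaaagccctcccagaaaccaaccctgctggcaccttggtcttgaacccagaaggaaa

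**Figure D2:**
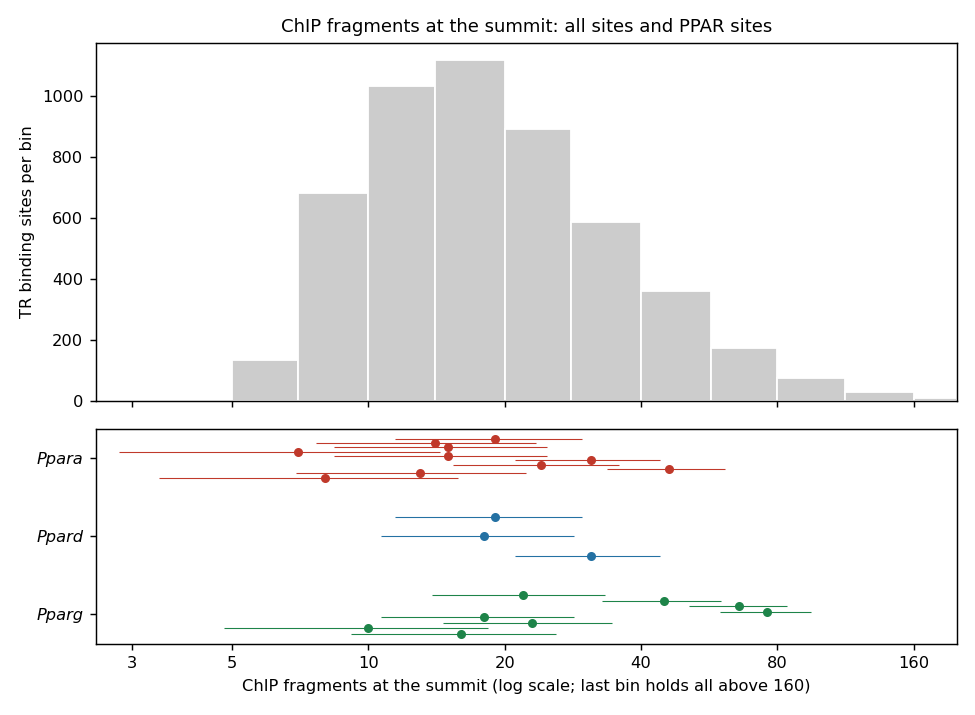
Number of ChIP fragments at the summit (log axis) for all TRBS, as a histogram, and for each TRBS of the PPAR genes, as points with 95% exact Poisson intervals. Ppara spans 7 to 46 fragments, Ppard 18 to 31 and Pparg 10 to 76, and the 3 points farthest to the right at Pparg are the sites beyond its end.

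Site strength was summarised by gene. The median was 15 fragments at Ppara, 19 at Ppard and 22.5 at Pparg, and the ranges of the genes overlapped. Thus Ppara had the most TRBS within 100 kb in the full list, but 6 of its 10 were at or below 15 fragments and only 4 exceeded the median of all TRBS. At Pparg 6 of 8 exceeded it, and at Ppard all 3. By fold, the median was 8.95 at Ppara, 12.7 at Ppard and 12.3 at Pparg, beside 9.83 over all TRBS. The contrast in sites above the list median was smaller by fold. Ppara site 6 was above it by fold only, and Ppard site 2 and Pparg site 4 by fragments only. When TRBS with a score under 60 were removed, as in the methods of the study, 8 TRBS were kept at Ppara, 3 at Ppard and 7 at Pparg. The TRBS that were lost were Ppara sites 1 and 7 and Pparg site 2. With a score of at least 100, 5 TRBS were kept at Ppara, 3 at Ppard and 7 at Pparg, so Pparg then had the most.

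The sequence motifs were searched in the 300 bp around each summit, on both strands, and compared with the 300 bp around all 5107 summits. A DR4 with at most 2 mismatches was present in 6 of the 21 sites (3 at Ppara, 1 at Ppard and 2 at Pparg), or 28.6%, and in 29.0% of all TRBS. The PPAR genes were thus near the share of the whole list. With at most 3 mismatches, 13 of the 21 sites had a DR4 (5 at Ppara, 3 at Ppard and 5 at Pparg), or 61.9%, beside 67.0% of all TRBS. An exact RGGTCA was present in 15 of the 21 sites (71.4%) and in 65.4% of all TRBS. By gene it was found in 8 of 10 TRBS at Ppara, 1 of 3 at Ppard and 6 of 8 at Pparg. The DR1, the element favoured by the PPARs themselves, was present with at most 2 mismatches in Ppara site 2 and in Pparg site 7, more than 100 bp from the summit in each, and in 11.0% of all TRBS. The TTGCGCAA motif of C/EBP factors with at most 1 mismatch, TCCCNNGGGA of EBF without mismatches, and the NF1 palindrome with at most 1 mismatch were found in none of the 21 sites. They were present in 8.81%, 3.21% and 1.90% of all TRBS.

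**Figure D3:**
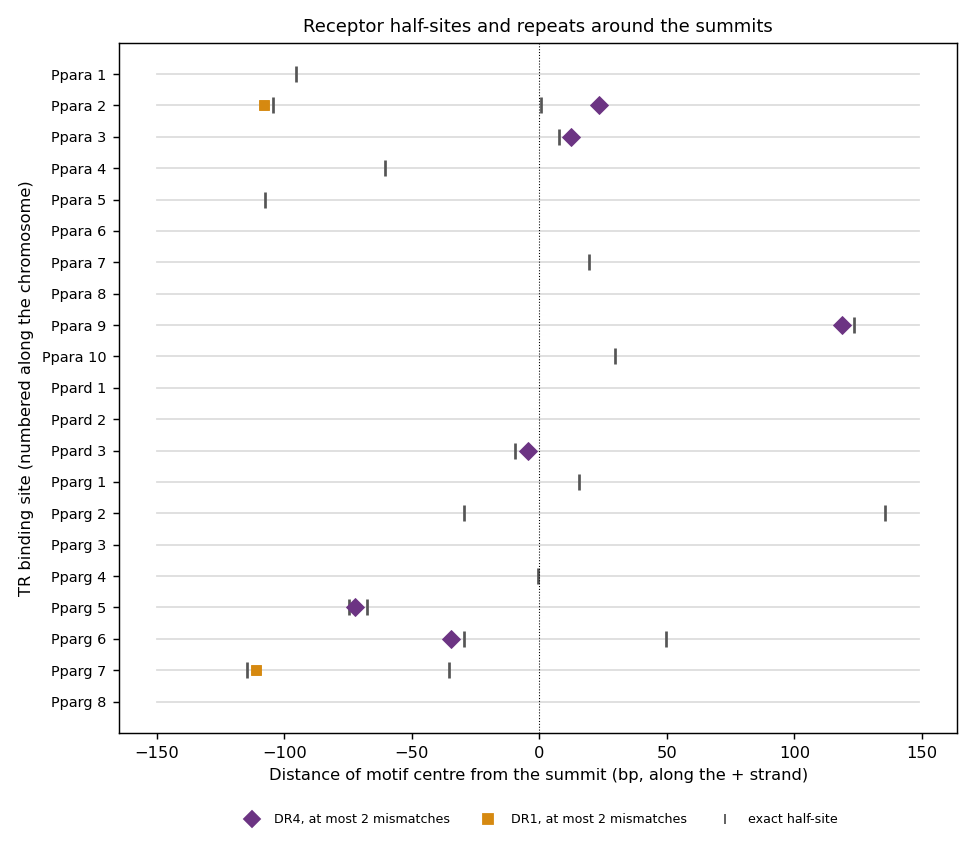
Position of the motifs within 150 bp of the summit for each TRBS of the PPAR genes, with distance from the summit in bp on the horizontal axis and 1 line per TRBS. Diamonds are DR4 elements with at most 2 mismatches, squares DR1 elements with at most 2 mismatches and ticks exact RGGTCA motifs; 3 of the 6 diamonds, at Ppara sites 2 and 3 and Ppard site 3, lie within 25 bp of the summit.

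The PPAR genes were then placed in a list of 49 mouse nuclear receptor genes. A TRBS within 100 kb was present at 25 of them (51.0%), beside 40.6% of all protein-coding genes, and the median was 1 TRBS. Ppara came first with 10 and Pparg second with 8, while Ppard shared the eighth place with 3. Both places depended on the measure. Within 10 kb, Ppara had 2 TRBS, fewer than the 3 each of Pparg, Ppard, Nr1d1 and Thra. Within 30 kb, Ppara had 6 TRBS, as had Nr1d1 and Thra, whereas Pparg shared the fifth place with Ppard and Rxrb, with 3 each. Per Mb of window, Pparg with 28.7 came after Ppara with 42.2, Nr1d1 with 34.2 and Thra with 32.9. Outside the PPAR genes, the receptor genes with the numbers closest to Ppara were Nr1d1 (7), Thra (7) and Esr1 (6), by the number of TRBS within 100 kb in the single library. Nr1d1 encodes the clock repressor REV-ERBα, Thra encodes TRα1 itself, and Esr1 encodes an estrogen receptor. Nr1d1 and Thra are neighbours and shared 6 of their 7 TRBS. The window of Esr1 was 514616 bp long, against 237232 bp for Ppara.

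**Figure D4:**
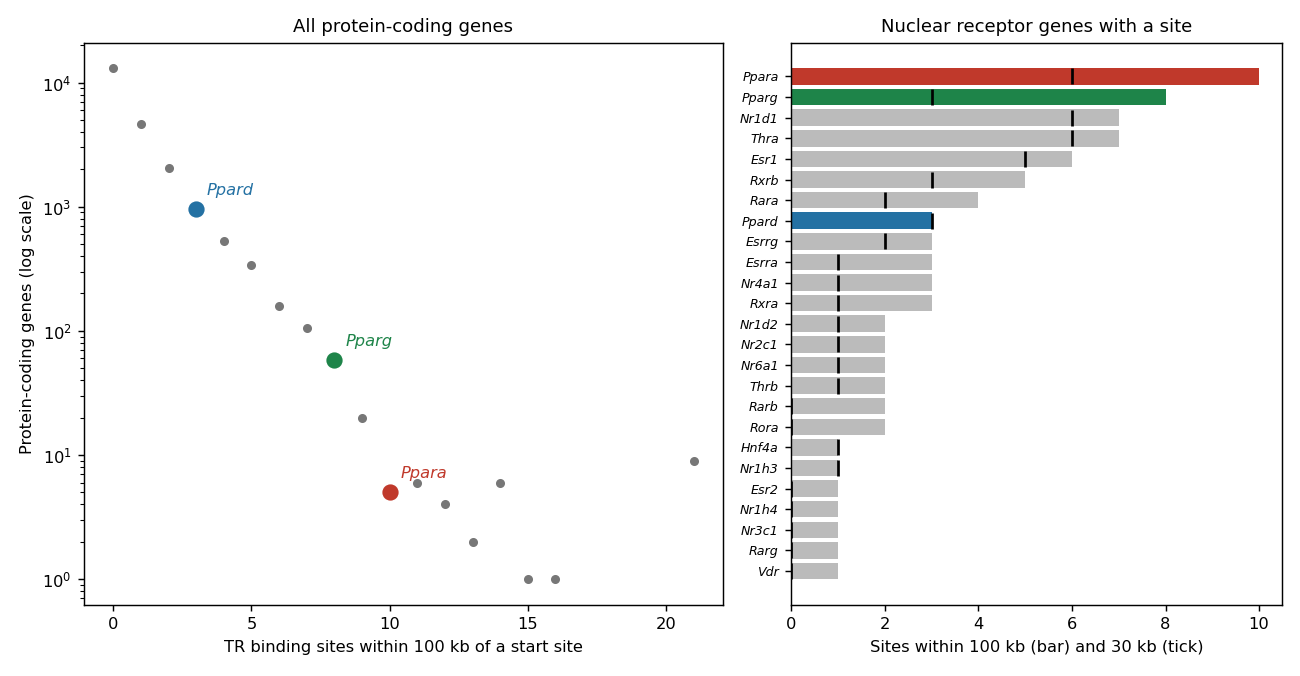
Left, number of protein-coding genes (log axis) for each number of TRBS within 100 kb of a start, with the PPAR genes marked. Right, TRBS within 100 kb (bars) and within 30 kb (ticks) for the 25 nuclear receptor genes with at least 1 TRBS; Ppara has the longest bar with 10, Pparg follows with 8 and Ppard has 3.

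The partners, coregulators and target genes through which the PPARs act were examined as a list of 46 genes. A TRBS within 30 kb was present at 29 of them (63.0%), beside 19.6% of all protein-coding genes, and 17 had more than 1. The list was made with earlier results of these data known, so this share is not independent evidence on the pathway. Among the RXR partners, Rxrb had 3 TRBS, Rxra 1 and Rxrg none. Of the coregulators, 9 of 12 had a TRBS, among them Ppargc1a with 4. Of the genes of lipid droplets and thermogenesis, 9 of 11 had a TRBS. Ucp1, the uncoupling protein of brown fat, had 5 TRBS, the strongest with 362 fragments. Its relative Ucp3 also had 5, the strongest with 69 fragments. Gpd1, a glycerol phosphate dehydrogenase, had 5 with at most 51 fragments, and Pnpla2, the main triglyceride lipase, had 5 with at most 46. Of the genes of fatty acid uptake and binding, 4 of 6 had a TRBS. Of the genes of fatty acid oxidation, 5 of 14 had a TRBS (35.7%), with 4 each at Pdk4 and Hadha, while Cpt1a, Cpt1b and Acadm were among those with none. Within 100 kb, 71.4% of the oxidation genes had a TRBS, beside 40.6% of all protein-coding genes.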

How the data were processed

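The samples were 1 ChIP and 1 input library. Per the labels and the submitters' processing notes, the authors aligned paired-end reads to mm10 (GRCm38) with Bowtie2 2.3.2.2 and made the deposited peak list with MACS2 2.1.1.20160309.6, calling the ChIP against the input. The deposited score of each peak is 10 times its −log10 q-value, rounded down. The deposited fold is the ratio of ChIP pileup to local background, after 1 was added to both, and the deposited −log10 p-value is that of a Poisson test. All 5107 peaks were kept, although 897 had a score under 60, the threshold in the study's methods.

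The number of ChIP fragments at a summit was recovered as the whole number for which fold and p-value agree within 0.0005. One was found for 5090 peaks (99.7%), and it was unique for each of the 21 sites. Read totals were not used here, and Poisson intervals cover counting error only, since fragments need not be independent molecules. The intervals apply to the ChIP fragments, and none was made for the input background or the fold. Starts, exons and 21938 protein-coding genes were taken from GENCODE M21, and sequence and further starts from RefSeq GRCm38.p6. Peak starts, counted from 0 in the file, are printed counted from 1. Motifs were searched in 300 bp per summit, and the search, the fragment recovery and the counts per gene were tested on simulated data. The NF1 motif was TTGGC and GCCAA with 5 bases between them. Python 3.11.15, SciPy 1.17.1 and pandas 2.3.3 were used.

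Named were the PPAR genes with all their TRBS, protein-coding genes nearest to or holding these, the 3 other receptor genes closest to Ppara in number, and genes among the 5 of the PPAR list with most TRBS within 30 kb. Some results that this rule takes in are not reported here. Other genes named were chosen after their values were seen. The members and all gene lists were chosen with earlier results of these data known. No test was made, since there was 1 library per group.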

Additional observations from a re-analysis of the deposited data

How the results depend on the processing

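Of 54 recomputed values, 35 stayed within 1.5 times the main count, or within the 95% Wilson interval of the main share, and 19 moved. With a score of at least 100, 5 TRBS were kept at Ppara, 3 at Ppard and 7 at Pparg, so Ppara no longer had the most. The number of TRBS at Ppara was 6 within 30 kb and 2 within 10 kb. It was 5 with a score of at least 60 and 30 kb together, a setting chosen after seeing the data. At Pparg it was 3 within 30 kb, 3 within 10 kb, 3 with 1 start per gene, 2 with a score of at least 60 and 30 kb together, and 4 when only TRBS nearest to Pparg were counted. At Ppard it moved only with a limit of 200 kb, to 6. A DR4 with at most 1 mismatch was found in 1 TRBS at Ppara, 0 at Ppard and 0 at Pparg, and in 6.66% of all TRBS. With at most 3 mismatches it was found in 5, 3 and 5, and in 67.0% of all TRBS. Genes with as many TRBS as Ppara were 0.255% with a score of at least 60, 0.246% within 30 kb and 2.33% within 10 kb. The 46-gene list did not move beyond 1.5 times. Peaks closer than 1000 bp, when merged, left 7 TRBS at Ppara, 3 at Ppard and 7 at Pparg. No paired analysis was possible because each group had 1 library. A single ChIP library with few fragments per summit limits every value, and weak sites such as Ppara site 7 rest on 7 fragments.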

Other observations

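The choice of annotation changed how some TRBS related to a start. In the RefSeq annotation used here, Lncppara has a start at 85703773 on chromosome 15, far downstream of its first start in GENCODE, and the summit of Ppara site 1 was 338 bp upstream of it. In RefSeq, the first start of Pparg is at 115361144 on chromosome 6, and the summit of Pparg site 1 was 41 bp upstream of it, in place of 152 bp downstream of the GENCODE start. The RefSeq start of Ppara is at 85735776, with the summit of Ppara site 8 at 222 bp upstream. The RefSeq start of Ppard is at 28232754 on chromosome 17, and the nearest summit, of Ppard site 2, was 3544 bp downstream. No internal start of Ppard was listed in RefSeq. Ppard site 3, 38964 bp downstream of the first GENCODE start, counts within 30 kb and 10 kb only through the internal GENCODE starts.

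Among the coregulators of the PPARs, Ppargc1b, which encodes a coactivator of mitochondrial genes, had 11 TRBS within 100 kb but only 3 within 30 kb, and Prdm16, a determinant of the brown adipocyte fate, had 6 and 1. Both were named after their values were seen. Like Pparg, these genes had most of their TRBS outside the distance used in the study.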
